A study of Mus musculus with 16 samples.

Results

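Transcript levels were compared between VE-cadherin positive (VEC-positive) and VE-cadherin null (VEC-null) mouse endothelial cells, both grown to confluence. The members are the arrays that the labels place in the confluent state of each line, which are 8 of the 16 arrays of the series. Per the labels, both lines have the same origin, endothelial cells derived from mouse embryonic stem cells in which both copies of the VE-cadherin gene carry a null mutation, and all cells were kept for 36 h in MCDB 131 medium with 1% bovine serum albumin before lysis. The labels used here do not say how the VEC-positive cells express VE-cadherin or whether each line is 1 clone. For each state, 1 cRNA sample made from 15 µg of total RNA was hybridised to 2 copies of the chip MG_U74Av2 (chip A) and 2 copies of the chip MG_U74Bv2 (chip B), so that each side of the comparison has 2 copies per chip. The copies are technical, so every p-value below measures only the spread between hybridisations of 1 cRNA sample and does not cover differences between cultures or clones. Sparse cells of both lines, measured in the same way on the other 8 arrays, serve as the reference for what depends on cell density.

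VE-cadherin, encoded by Cdh5, is the cadherin of endothelial adherens junctions. In a confluent layer its extracellular part binds the same protein on the neighbouring cell, while its cytoplasmic tail holds beta-catenin, plakoglobin and p120-catenin at the membrane and links them to actin. It is known for controlling the permeability of the vessel wall, for limiting the response to growth factors and for restraining growth of contacting cells. Per the design text, genes induced by VE-cadherin once it is expressed and assembled into junctions were sought by the study in the confluent VEC-positive cells.

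Values are MAS5 signals, the linear array intensity that the authors scaled to a target of 500. Where a pair of signals is given, the numbers are the copies of 1 cRNA sample. A log2 change is the mean log2(signal + 50) of VEC-positive minus that of VEC-null cells, so a fold derived from it is a fold of the signal plus 50 and understates the change of dim transcripts. A probe set was called when the adjusted p was below 0.05 and the log2 change at least 1 in either direction. Levels are compared only within a probe set, never between genes.

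The copies of a confluent cRNA sample correlated at 0.963 to 0.988 (Pearson's r over all probe sets of a chip). Of 11 endothelial markers, 9 gave more than 500 in every confluent array of both lines, among them Cdh5 itself and the receptor genes Kdr, Tek and Tie1. The exceptions were Flt1, the VEGF receptor 1 gene, with 678 and 722 in VEC-null and 516 and 425 in VEC-positive cells, and Pecam1, with 51.1 and 286.8 against 73.6 and 242.9, which is a wide spread between copies. The summed signal of the 11 markers was 55722 and 55919 in VEC-null and 47985 and 47117 in VEC-positive cells. Of the 11 smooth muscle, pericyte and fibroblast markers 6 passed the level filter. All 11 together summed to 2025 and 2143 in VEC-null and 1478 and 1771 in VEC-positive cells. The 7 blood markers, of which 3 passed the level filter, summed to 1432 and 1765 against 1004 and 1051. Most of that difference lay in Cd68 (746.5 and 1073.5 against 288.4 and 281.1). Csf1r was not called, at 317.5 and 154.2 against 365.2 and 336.9 (log2 change 0.55), and neither was Cd14 (-0.33). Ptprc, the pan-leukocyte phosphatase, read at most 20.4 in any confluent array. The probe set for Cdh5 read 2707 and 2509 in VEC-null and 2607 and 2526 in VEC-positive confluent cells (log2 change -0.02). The labels do not say where these probes lie relative to the mutated part of the gene, and this signal does not check which line is null. In this bulk RNA, fewer cells of a type and less RNA per cell cannot be told apart.

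Of 14344 probe sets tested, 1132 (7.89%) were called, 614 of them higher (4.28%) and 518 lower (3.61%) in confluent VEC-positive cells. These stood for 424 genes that rose and 319 that fell, of 9245 genes tested, so that 4.59% of genes were called higher and 3.45% lower (8.04% in either direction). Counts for gene lists below are to be read beside the 4.59% higher and 3.45% lower. The median log2 change of all genes was -0.01. Among the genes that rose the median fold was 2.55, 64 were at least 4-fold higher and 7 at least 16-fold. Among the genes that fell the median fold was 2.65, 69 were at least 4-fold lower and 5 at least 16-fold. Nearest to the threshold, Setd5 (-1.0) and Kif3c (1.0) were called, and Ric8b (1.0) and Tmem259 (1.0), both just under 1 before rounding, were not. With 2 copies a side, the signals of the lines failed to overlap for 6380 genes, or 69% of those tested, so a lack of overlap alone marks little. A subset went from below 50 in both copies of one line to above 500 in both copies of the other. In that subset, 10 genes rose from below 50 (Cldn5 did not enter it, since 1 of its VEC-null copies read 78), and they were Col5a2, Ak1, Vwf, Gatm, Lamb3, Ptprv, Ahrr, Celf5, Def6 and Slc9a9. The 10 that fell below 50 were Gja1, Sox11, Mest, Gpsm3, Kit, Postn, Gja4, Pmepa1, Adamtsl1 and Btnl9.

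**Figure D1:**
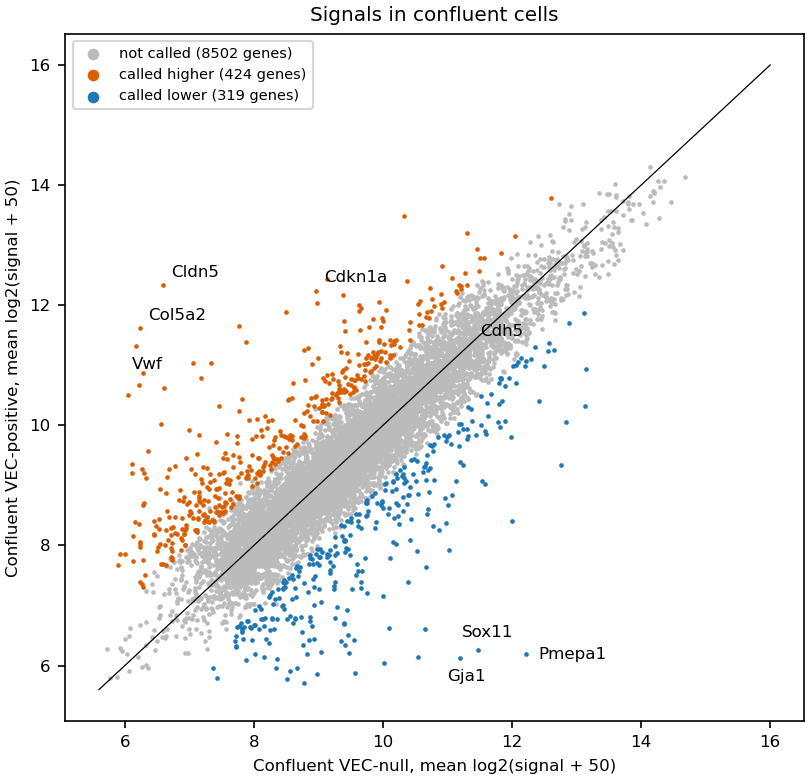
Mean MAS5 signal of each of the 9245 genes in confluent VEC-null cells (x axis) and confluent VEC-positive cells (y axis), as log2(signal + 50), each point the mean of 2 array copies. The 424 genes called higher are orange, the 319 called lower are blue and the rest grey, and the named genes at the upper left (Cldn5, Col5a2, Vwf) and lower right (Pmepa1, Sox11, Gja1) are those with the largest log2 changes.

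The junction genes are described first. Claudin-5, encoded by Cldn5 on chromosome 16, is the main claudin of endothelial tight junctions and seals the space between cells. Its signal was 78 and 23 in the copies of confluent VEC-null cells and 5222 and 5008 in those of confluent VEC-positive cells, a log2 change of 5.74 (SE 0.27, adjusted p = 7.6e-07, 53.4-fold). Sparse cells read 13.6 and 10.2 in the null and 47.8 and 16 in the positive line, so only the copies of confluent VEC-positive cells were bright for this probe set. The 250 bases before the RefSeq start of Cldn5 (GRCm38.p6, chr16:18776597-18776846, + strand) are shown because this gene had the largest rise of the comparison. They were searched on both strands for the core of FoxO sites, GTAAACA, and for the TCF cores CTTTGAT and CTTTGAA, which share their first letters and differ in the last. None of the 3 was found in this window, where any match would be in capitals, and 2.69%, 2.84% and 3.97% of the 7510 tested genes with a window hold them.
Cldn5: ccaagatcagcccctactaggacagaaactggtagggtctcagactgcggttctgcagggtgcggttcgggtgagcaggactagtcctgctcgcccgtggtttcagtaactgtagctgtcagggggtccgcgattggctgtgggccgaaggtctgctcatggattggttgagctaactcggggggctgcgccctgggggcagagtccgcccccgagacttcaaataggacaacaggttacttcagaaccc

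Of the 13 tight junction genes tested, 3 were called higher (23.1%, against 4.59% of all genes) and none lower, with a list median of 0.09. Besides Cldn5 these were Cgnl1, which encodes the junction scaffold paracingulin, and Jam3, a junctional adhesion molecule. Cgnl1 read 1523 and 1877 in VEC-null and 4573 and 4113 in VEC-positive cells (log2 change 1.33, adjusted p = 2.3e-05). Jam3 read 668 and 587 in VEC-null and 1538 and 1381 in VEC-positive cells (log2 change 1.16). Tjp1, the gene of ZO-1, the scaffold under claudins, did not pass and had a log2 change of -0.75. Jam2 was at -0.95 and Esam, an endothelial adhesion molecule of the same family, at -0.20, and neither passed.

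Of the 22 adherens junction genes tested, 4 rose and none fell, and the list median was 0.14. All 4 encode membrane proteins, and the catenins were not among them. Cdh13, the gene of T-cadherin, a cadherin held in the membrane by a lipid anchor, read 175 and 163 in VEC-null and 719 and 608 in VEC-positive cells (log2 change 1.70, SE 0.14). Ptprb encodes VE-PTP, the receptor phosphatase that associates with VE-cadherin, and went from 1790.0 and 1504 to 4974 and 4948 (log2 change 1.57, SE 0.10). Ptprj, the gene of the phosphatase DEP-1, went from 104 and 145 to 442 and 438 (log2 change 1.5), and Nectin1 had a log2 change of 1.16. The genes of the cytoplasmic partners did not pass, with log2 changes of -0.36 for Ctnnb1 (beta-catenin), 0.11 for Jup (plakoglobin), 0.16 for Ctnnd1 (p120-catenin) and 0.26 for Ctnna1 (alpha-catenin). Cdh2, which encodes N-cadherin, the other main cadherin of endothelial cells, had a log2 change of 0.23 and did not pass.

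Gap junction genes went the other way. Gja1 encodes connexin 43 and Gja4 connexin 37, channel proteins that join the cytoplasm of neighbouring cells. Gja1 read 2270.1 and 2308 in confluent VEC-null cells and 8.2 and 33.8 in confluent VEC-positive cells, a log2 change of -5.07 (SE 0.16, adjusted p = 9.3e-08). In sparse cells it read 8007 and 7903 in the null and 25.3 and 22.1 in the positive line, so this probe set was dim in every array of VEC-positive cells. Gja4 went from 674 and 648 to 18.3 and 30.8 in confluent cells (log2 change -3.26, adjusted p = 2.8e-06). Its sparse signals were 13.8 and 10.6 in the null and 18.2 and 14.4 in the positive line, so only confluent VEC-null cells were bright for Gja4. Of the 4 gap junction genes tested these 2 fell, and Gjc1 (log2 change -0.74) and Panx1 (0.44) did not pass.

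Genes of hemidesmosomes, the junctions that tie cells to laminin, held a further pair of rises. Lamb3, the beta-3 chain of laminin-332, read 15.6 and 17.5 in VEC-null and 1492 and 1308 in VEC-positive confluent cells (log2 change 4.44, SE 0.20, adjusted p = 6.5e-07). The integrin gene Itgb4, whose product binds that laminin together with the alpha-6 chain, went from 27.3 and 29.8 to 342 and 396 (log2 change 2.41). In sparse cells the log2 changes were 0.09 for Lamb3 and 0.73 for Itgb4, neither called. Of the 11 hemidesmosome and desmosome genes tested these 2 rose and none fell. Itga6, the partner of Itgb4, had a log2 change of -0.29, and Plec, the plectin gene, 0.47, both short of the threshold.

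**Figure D2:**
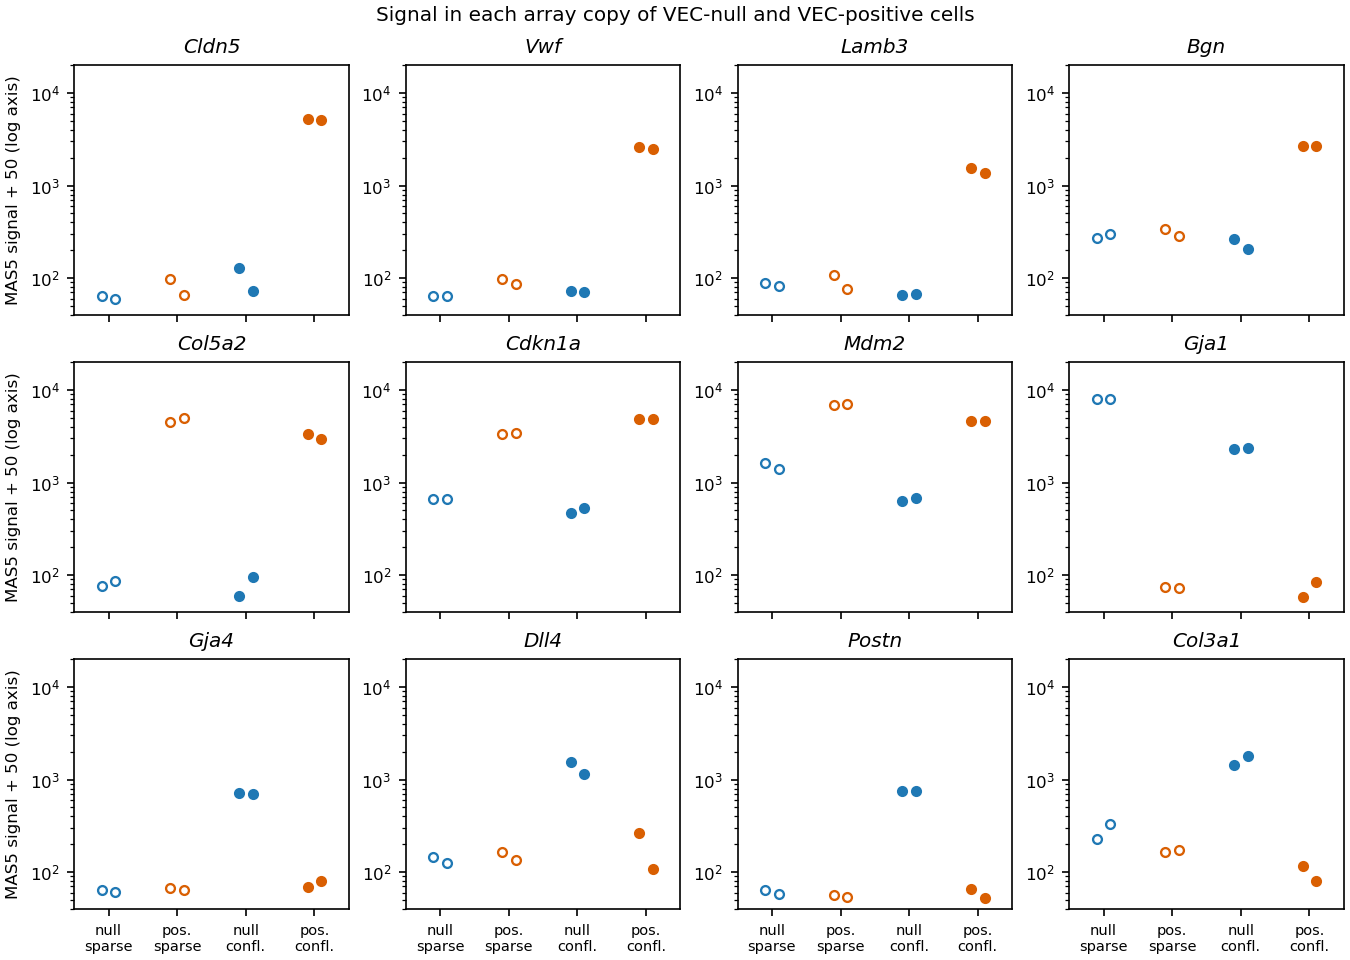
MAS5 signal of 12 genes in every array copy of the 4 groups (2 copies per group), on a log axis as signal + 50, with VEC-positive cells in orange, VEC-null cells in blue, confluent cells filled and sparse cells open. Cldn5, Vwf and Lamb3 are high only in confluent VEC-positive cells, Col5a2 and Cdkn1a are higher in VEC-positive cells at both densities, Gja4, Dll4 and Postn are high only in confluent VEC-null cells, and Gja1 is high in VEC-null cells at both densities.

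Von Willebrand factor, the endothelial glycoprotein that tethers platelets and is stored in Weibel-Palade bodies, followed Cldn5 closely. Vwf read 23.4 and 20.5 in VEC-null and 2594 and 2439 in VEC-positive confluent cells (log2 change 5.16, SE 0.16, adjusted p = 9.3e-08, 35.7-fold). Its sparse signals were 14.4 and 14.6 in the null and 48.2 and 36.0 in the positive line, so as for Cldn5 only confluent VEC-positive cells were bright. F8, the gene of coagulation factor VIII, which circulates bound to von Willebrand factor, went from 1499 and 1430.4 to 3980.1 and 3349 (log2 change 1.29). Multimerin-2, encoded by Mmrn2, is an endothelial matrix glycoprotein and went from 1399 and 1097 to 11893 and 11025 (log2 change 3.16).

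On the other side of haemostasis, 3 genes of clot start and clot removal fell. F3 encodes tissue factor, which starts coagulation, and went from 267 and 209.8 to 8.5 and 36.1 (log2 change -2.02). Plat encodes the tissue plasminogen activator and went from 1542 and 1672 to 395 and 288 (log2 change -2.09), while sparse cells showed a rise of 1.08. Plaur, the urokinase receptor gene, went from 409 and 470.4 to 166 and 66.2 (log2 change -1.63). Of 13 coagulation and fibrinolysis genes tested, 2 rose and 3 fell. Procr, the endothelial protein C receptor gene, had a log2 change of 0.01, Tfpi, the tissue factor inhibitor gene, -0.30, and Plau, the urokinase gene, 0.90, and none of these passed.

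Genes of endothelial identity were called in 23.3% of cases, against 8.04% of all genes. Of 43 tested, 8 rose (18.6%, against 4.59% of all genes), 2 fell (4.65%, against 3.45%) and 33 did not pass, with a list median of -0.02 that turned to 0.05 under quantile normalization. Besides Vwf, Mmrn2 and Ptprb, the rises were Aplnr, the apelin receptor (log2 change 1.82), Edn1, which encodes the constrictor peptide endothelin-1 (1.49), Elk3, an ETS factor (1.25), Gpr182 (1.22) and Acvrl1, the receptor ALK1 of BMP9 and BMP10 (1.02). Edn1 read 31.8 and 55.6 in VEC-null and 224 and 199 in VEC-positive cells. The falls were Ednrb, the endothelin B receptor, from 648 and 718 to 127 and 84.6 (log2 change -2.24), and Mcam (-1.08).

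The vascular endothelial growth factor receptors did not pass. Kdr, the main one, read 4319.8 and 4149 in VEC-null and 2337 and 2195 in VEC-positive cells, a log2 change of -0.89 (SE 0.11) that lay just short of the threshold of 1 although the copies did not overlap. Nos3, the endothelial nitric oxide synthase gene, was also just short of it at -0.88. Flt1 was at -0.53, Flt4 at -0.30, the angiopoietin receptor gene Tek at -0.52 and Tie1 at 0.17. Of the 20 vascular growth factor genes tested, 1 rose (5%, against 4.59% of all genes) and 2 fell (10%, against 3.45%). Pdgfc rose (1.16), and Pgf, the placental growth factor gene, went from 559.8 and 565 to 99.5 and 137 (log2 change -1.87). Pdgfrb, a receptor usually found on pericytes, went from 311 and 344 in VEC-null to 9.0 and 11.4 in VEC-positive cells (log2 change -2.65). Among the other smooth muscle, pericyte and fibroblast markers, Acta2 also fell (log2 change -1.64). It read 120.1 and 125 in VEC-null and 6.4 and 4.7 in VEC-positive cells. Not called were Tagln (0.26), Col1a1 (0.15), Col1a2 (0.09) and Myh11 (-0.21). Des, Cnn1 and Thy1 did not pass the level filter and were dim in both lines. Pdgfra, which did not pass the level filter, read 127 and 141 against 71.8 and 55.1, and Cspg4, which encodes the proteoglycan NG2, was dim in both lines, at 24.7 and 22 against 15.1 and 19.6. Whether other cells have a part in the Pdgfrb signal was not tested.

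Transcription factors that mark endothelial cells were called in 16.1% of cases, against 8.04% of all genes, with 3 of 31 higher, 2 lower and 26 not called. Klf4, a factor induced by flow in endothelial cells, read 542 and 621 in VEC-null and 1555 and 1185 in VEC-positive cells (log2 change 1.16), and Klf9 had 1.15. The inhibitors of differentiation Id1 and Id3, targets of BMP signalling, both fell. Id3 went from 1223 and 1452 to 316 and 280.2 (log2 change -1.99) and Id1 from 589 and 659 to 287 and 257 (-1.07). Foxo1, which encodes a FoxO factor, had a log2 change of 0.08, Klf2 -0.10 and Sox18 -0.77, none of which passed.

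Notch genes that were called all fell. Notch receptors are activated by Delta and Jagged ligands on the adjoining cell and set arterial fate in endothelium, with Hey1, Hes1 and Nrarp among the genes they switch on. The ligand gene Dll4 read 1513 and 1106 in confluent VEC-null and 213 and 57.3 in confluent VEC-positive cells (log2 change -3.00, SE 0.39, adjusted p = 0.00036). Its sparse signals were 96.1 and 74.1 in the null and 113 and 85.1 in the positive line, so only confluent VEC-null cells were bright. Among the receptors, Notch3 fell from 532 and 369 to 122 and 138 (-1.46), while Notch1 (-0.12) and Notch4 (-0.87) did not pass. Mfng, a sugar transferase that tunes Notch receptors, fell from 1454 and 1386 to 158 and 224 (log2 change -2.62). Among the targets, Nrarp fell by 1.56 and Hey1 by 1.11 on the log2 scale, and Hes1 was at -0.81 without passing. In all, 5 of 17 Notch genes tested fell and none rose, against 3.45% of all genes lower.

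The arterial, venous and lymphatic list, which shares Dll4 and Hey1 with the Notch list and Gja4 with the gap junctions, had 5 of 10 members lower, none higher and a median of -1.0. Its other falls were Alpl, from 1152 and 1101 to 181 and 241 (-2.18), and Depp1 (-1.44). Efnb2, the arterial ephrin, was at -0.60 and Nr2f2, the venous factor COUP-TFII, at -0.90, and neither passed.

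Guidance molecules, which steer axons and vessel sprouts, were called in 8 of 33 cases, 7 lower and 1 higher, with a median of -0.29. The receptor gene Robo1 went from 587 and 346 to 6.1 and 10.6 (log2 change -3.11, adjusted p = 8.2e-05). Efna1, the gene of ephrin-A1, went from 1096 and 1248 to 297 and 258 (-1.90), and Sema6a from 272 and 421 to 80.8 and 33.9 (-1.89), but its other probe sets gave 0.05, -0.27 and 0.04, none called. Sema3a (-1.58), Sema4b (-1.33), Ntn1 (-1.09) and Plxnb1 (-1.05) made up the rest, and the other probe set of Sema4b gave -0.14 without passing. Efna5 was the exception and rose by 1.53.

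**Figure D3:**
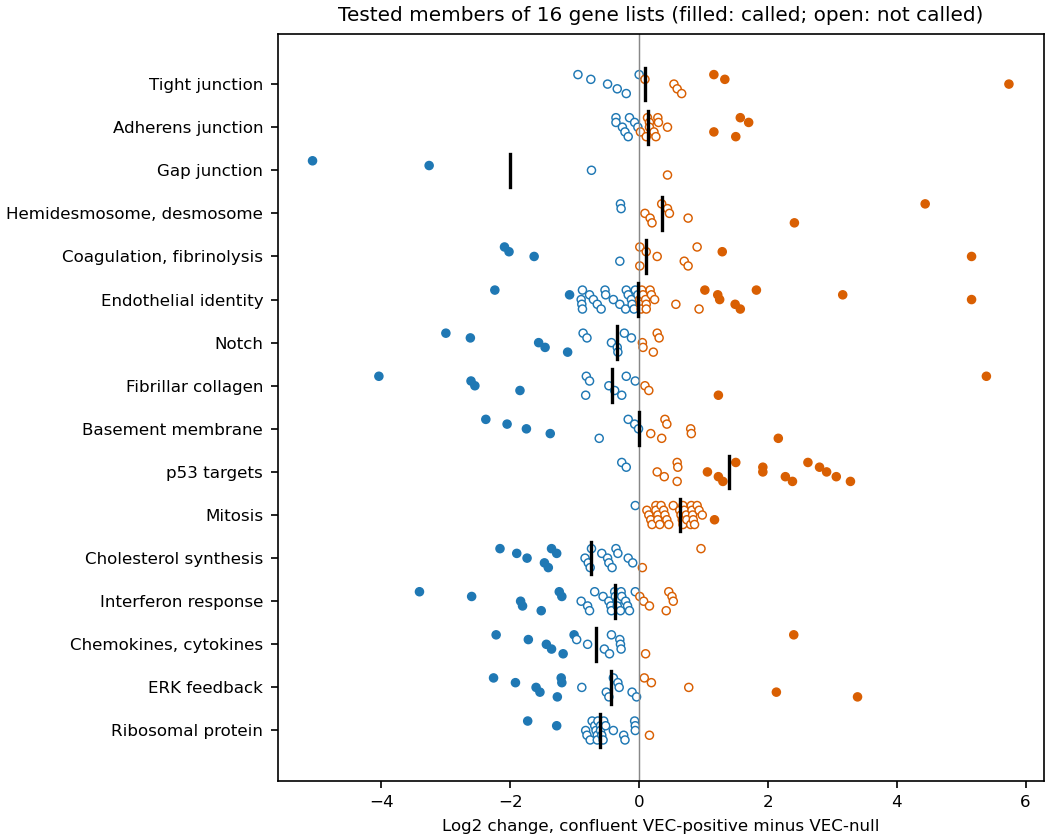
Log2 change of every tested member of 16 gene lists in confluent cells (x axis, VEC-positive minus VEC-null), with called members filled and the others open, and the list median as a vertical bar. Members of the p53 target list lie mostly right of 0 (13 of 20 called higher), cholesterol synthesis (7 of 21 lower) and interferon response (7 of 33 lower) lie mostly left, and the ribosomal protein genes sit left of 0 with 2 called.

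Genes of the extracellular matrix held some of the largest changes in both directions. Fibrillar collagens form the fibres of connective tissue, and collagen VI forms beaded filaments next to cells. Col5a2, the alpha-2 chain of collagen V, read 9.8 and 44.6 in VEC-null and 3268 and 2930.0 in VEC-positive cells (log2 change 5.39, SE 0.19, adjusted p = 1.7e-07). Its partner chain Col5a1 did not pass (-0.06). Col3a1, the collagen III gene, which lies on the same chromosome 1 as Col5a2, went from 1376 and 1754 to 67.7 and 30.7 (log2 change -4.04, adjusted p = 2.8e-06). All 3 chains of collagen VI measured here fell, Col6a1 from 1763 and 1872 to 256 and 255 (-2.61), Col6a2 from 752 and 874 to 93.7 and 101 (-2.55) and Col6a3 from 395 and 307 to 44.4 and 80.2 (-1.85). In sparse cells the collagen VI genes had log2 changes of -0.29, -0.22 and -0.14, none called. Of 16 fibrillar collagen genes tested, 2 rose and 4 fell. Plod2, a lysyl hydroxylase gene, rose by 1.23, and Col1a1 (0.15) and Col1a2 (0.09) were not called.

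The basement membrane underlies the endothelium and is built from collagen IV, laminins, nidogens and perlecan. Of 15 such genes tested, 4 fell and 1 rose. Nid2, a nidogen that links laminin to collagen IV, went from 2531 and 1899.7 to 535 and 450.3 (log2 change -2.05). Col4a5 went from 286 and 264 to 6.4 and 19.4 (-2.38), Agrn, the agrin gene, fell by 1.75 and Lamb1 by 1.38 on the log2 scale. Col15a1, which encodes a collagen of the outer basement membrane, rose from 212 and 175 to 977 and 1104 (log2 change 2.16). The main collagen IV chains Col4a1 (0.35) and Col4a2 (0.43) and the perlecan gene Hspg2 (0.80) did not pass.

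Among 22 matricellular proteins and proteoglycans, 6 rose and 3 fell. Bgn encodes biglycan, a small leucine-rich proteoglycan, and went from 215 and 159 to 2639 and 2628 (log2 change 3.51, SE 0.15). Dcn, the gene of the related decorin, rose by 1.18. Ccn2, known as connective tissue growth factor and as a target of YAP and TGF-beta, went from 139.7 and 137 to 741 and 651 (1.98). Ltbp1, whose product holds latent TGF-beta in the matrix, rose by 1.62, and Sned1 went from 244 and 114 to 3302 and 3026 (3.87). Postn, the periostin gene, was bright only in confluent VEC-null cells, with 704 and 706 there, 15.4 and 2.8 in confluent VEC-positive cells, 14.4 and 7.5 in sparse VEC-null and 6.3 and 4.1 in sparse VEC-positive cells (log2 change -3.68, adjusted p = 2.2e-06). Fn1, the fibronectin gene, had a log2 change of -0.30 and did not pass.

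Of 16 matrix protease and inhibitor genes, 3 fell and 1 rose. Adamtsl1 went from 1031 and 1056 to 48.4 and 49.1 (log2 change -3.47), and Mmp13, a collagenase gene, from 1461 and 1432 to 444 and 390.3 (-1.68). Reck, a membrane inhibitor of such proteases, rose by 1.14. Mmp14, the main membrane-bound collagenase, was at -0.73 and did not pass. Of 15 integrin genes, Itgb4 and Itga7 (1.28) rose, and Itga9, from 1991 and 2220.1 to 494 and 340.0 (-2.23), and Itga2 (-1.18) fell, with Itgb1 at 0.07. These calls were 13.3% each way, against 4.59% of all genes higher and 3.45% lower.

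Targets of p53 had the largest share of calls in 1 direction of the 57 lists examined. The factor p53 responds to DNA damage and other stress by switching on genes that stop the cell cycle, and Mdm2, itself a target, encodes the ligase that removes p53. The list was drawn up with earlier results for Cdkn1a, Btg2 and Sesn1 in these data known, so its count is a description. Of 20 members tested, 13 rose and none fell, with a median of 1.40, against 4.59% of all genes higher. Cdkn1a encodes p21, the inhibitor of cyclin-dependent kinases, and went from 418 and 485 in VEC-null to 4779 and 4826 in VEC-positive cells (log2 change 3.28, SE 0.09, adjusted p = 9.3e-08). Mdm2 went from 590.4 and 638 to 4558 and 4566 (2.80) and Ccng1, the cyclin G1 gene, from 159.8 and 189.7 to 1377 and 1285 (2.62). Ephx1, an epoxide hydrolase gene, went from 416 and 494 to 4368 and 3912 (3.06), and Trp53inp1, an inducer of cell death and autophagy, from 707 and 773 to 4185 and 3929.5 (2.38). In all 5 genes both copies of VEC-positive cells lay above both copies of VEC-null cells, as in all 424 genes called higher. A lack of overlap was found for 69% of all genes tested, so it adds nothing to these calls.

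The other rises on this list were Def6 (2.91), Zmat3 (2.27), Phlda3 (1.92), Sesn1 (1.92), Btg2 (1.5), Pltp (1.30), Psrc1 (1.23) and Ei24 (1.06). The members that did not pass were Gadd45a (-0.20), Plk3 (-0.27), Rrm2b (0.28), Fas (0.39), Plk2 (0.59), Pmaip1 (0.59) and Aen (0.60). In sparse cells 13 of the 20 were also higher, with a median of 1.39. Sesn1, a stress sensor that restrains mTORC1, was the exception among those called in confluent cells, reading 141 and 128 in confluent VEC-null and 648 and 651 in confluent VEC-positive cells against 201 and 232 and then 194 and 217 in the same lines when sparse. Mdm2 and Phlda3 lie on chromosomes 10 and 1, Cdkn1a on 17 and Ccng1 on 11, and chromosome 10 as a whole stood higher in VEC-positive cells, as described below.

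The 250 bases before the RefSeq starts of Cdkn1a, Mdm2 and Ccng1 (GRCm38.p6) are shown because these genes moved together and carry matches to the consensus decamer bound by p53, of which a full response element holds a pair. Matches, found on both strands, are in capitals. In the table used, 16 of the 20 members had a window and 7 of these, or 43.8%, held the decamer (Aen, Ccng1, Cdkn1a, Ei24, Gadd45a, Mdm2 and Sesn1), against 7.11% of the 7510 tested genes with a window. The share was 9.2% among genes called higher and 8.87% among those called lower. Other lists searched for the same decamer had it in 5 of 17 cholesterol synthesis genes (29.4%), 4 of 17 FoxO targets (23.5%) and 4 of 27 interferon genes (14.8%). A match describes the letters and is not a shown binding site. The window of the other Cdkn1a start, chr17:29093519-29093768 (+ strand), held 0 matches and is not shown. Gadd45a and Aen, which also hold the decamer, were not called. The windows shown are chr17:29090729-29090978 (+ strand) for the upstream start of Cdkn1a, which held 2 matches, chr10:117710759-117711008 (- strand) for Mdm2 with 1 and chr11:40755287-40755536 (- strand) for Ccng1 with 1.
Cdkn1a: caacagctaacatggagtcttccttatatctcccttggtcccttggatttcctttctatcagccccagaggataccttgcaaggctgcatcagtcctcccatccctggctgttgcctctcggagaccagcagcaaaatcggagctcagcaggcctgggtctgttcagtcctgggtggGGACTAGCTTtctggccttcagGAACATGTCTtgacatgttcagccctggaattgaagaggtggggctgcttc
Mdm2: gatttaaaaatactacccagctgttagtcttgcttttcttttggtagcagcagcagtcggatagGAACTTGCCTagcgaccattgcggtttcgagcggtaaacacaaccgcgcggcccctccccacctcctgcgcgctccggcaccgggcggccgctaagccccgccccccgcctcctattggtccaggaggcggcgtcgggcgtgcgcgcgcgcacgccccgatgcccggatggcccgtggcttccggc
Ccng1: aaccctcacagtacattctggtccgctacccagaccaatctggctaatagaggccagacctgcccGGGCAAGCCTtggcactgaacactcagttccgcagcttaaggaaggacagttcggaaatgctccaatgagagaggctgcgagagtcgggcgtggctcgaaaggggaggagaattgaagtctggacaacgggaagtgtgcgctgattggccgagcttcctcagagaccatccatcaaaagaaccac

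Of 16 growth arrest genes 7 rose and none fell, with Cdkn1a and Btg2 shared with the p53 list. Gas6, a secreted ligand of the TAM receptors, went from 134 and 117 to 1149 and 1332 (2.88), and Tob1, an antiproliferative gene, from 1103 and 869 to 3541 and 3211 (1.73). Rb1, the retinoblastoma gene, rose by 1.23 and the p18 inhibitor gene Cdkn2c by 1.09. Cdkn1c (-0.15) and Cdkn2a (-0.43) were not called.

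Few mitosis and DNA replication genes were called, and none of them lower. With 3.45% of all genes lower, the lack of falls in lists of this size marks little. Of 34 mitosis genes tested, 1 rose (Cdk1, log2 change 1.17), or 2.94% against 4.59% of all genes. None fell, but 33 of 34 lay above 0 and the list median was 0.64. Of 31 DNA replication genes, 2 rose (6.45%, against 4.59%) and none fell, with a median of 0.23. These were Prim1, a primase subunit gene, from 186 and 155 to 647 and 593 (1.61), and Gins1 (1.12). Mki67, the proliferation marker, had a log2 change of 0.68, Top2a 0.90, Ccnb2 0.15 and Pcna 0.13, and none passed. Among cyclin D genes Ccnd1 (1.45), Ccnd2 (1.56) and Ccnd3 (1.13) rose by the probe sets that stand for them, but the other probe set of Ccnd3 gave 0.02 without passing. Myc, a growth gene, fell by 1.15 on the log2 scale. The linker histone genes H1f2, from 1027 and 986 to 4003 and 3687 (1.88), and H1f10, from 34.6 and 63.1 to 1552 and 1485 (4.0), rose, but a second probe set for H1f10 had a log2 change of 0.01.

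In sparse cells the mitosis list stood at -0.50 and the replication list at -0.76, with 1 and 10 members lower in VEC-positive cells. The test of the difference between densities called 20 of 34 mitosis genes and 18 of 31 replication genes with a higher value in confluent cells, against 6.5% of all genes. Cdk1 was not called in that test, with log2 changes of 1.17 in confluent and 0.94 in sparse cells.

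Cholesterol synthesis genes, which are switched on together by the sterol sensor SREBP2, had 7 of 21 members lower in confluent VEC-positive cells and none higher. In all 19 of the 21 lay below 0, with a median of -0.74. Hmgcs1 makes the substrate of the rate-limiting enzyme and went from 2179 and 1958 to 846 and 709 (log2 change -1.36). Fdps, the farnesyl diphosphate synthase gene, went from 1789 and 2091 to 395 and 391 (-2.16), Idi1 from 1233 and 1072 to 327 and 293 (-1.74) and Lss, the lanosterol synthase gene, from 307 and 494 to 93.5 and 143 (-1.41). Insig1 (-1.47) and Srebf1 (-1.90), which belong to the sterol sensor itself, and Msmo1 (-1.28) also fell. In sparse cells the list median was 0.42, and the test of the difference called 13 members lower and 0 higher in the confluent comparison, against 6.2% of all genes lower. Scap, which escorts SREBPs, was at 0.96 and did not pass. Scd1, a fatty acid desaturase gene, fell by 1.57 and Pparg by 1.51 on the log2 scale, while Fasn (-0.18) and Acaca (0.32) did not pass.

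The window before Hmgcs1 (GRCm38.p6, chr13:119690101-119690350, + strand) is shown because it was the only one of 17 cholesterol genes with a window to hold the sterol regulatory element TCACNCCAC, in capitals, which 1.26% of tested genes hold on either strand.
Hmgcs1: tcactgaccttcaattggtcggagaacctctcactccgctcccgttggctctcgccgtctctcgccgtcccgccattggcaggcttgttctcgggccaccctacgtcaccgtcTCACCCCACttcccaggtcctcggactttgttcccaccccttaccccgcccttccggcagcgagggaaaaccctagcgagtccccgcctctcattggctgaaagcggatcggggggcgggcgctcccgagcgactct

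Interferon response genes, the antiviral genes switched on by interferon through STAT factors, had 7 of 33 members lower, none higher and a median of -0.37. Isg15, a ubiquitin-like modifier, went from 2057 and 1881 in VEC-null to 271 and 294 in VEC-positive cells (log2 change -2.60). Oasl1 went from 6858 and 6877 to 499 and 723 (-3.41) and Rsad2, the viperin gene, from 3667 and 3455 to 972 and 939 (-1.84). Oas2 (-1.81), Irf8 (-1.52), Ifit2 (-1.24) and Oasl2 (-1.20) were the others. In sparse cells 10 members were lower and 1 higher, with a median of -0.65. Irf7, a factor that amplifies the response, was at 0.51, and Irf9 at 0.42, and neither passed. The window before Isg15 (GRCm38.p6, chr4:156200819-156201068, - strand) is shown because 12 of 27 interferon genes with a window, or 44.4%, hold the interferon-stimulated response element (GAAA, 2 bases of any kind and GAAA again) on either strand, against 3.01% of tested genes. Its 3 overlapping matches form the run in capitals. Of the 7 called members only Isg15 and Rsad2 are among the 12, and the other holders, such as Ifit1, Ifit3 and Stat2, were not called. The share with the element was 5.24% among all genes called lower and 2.15% among those called higher. A match describes the letters and is not a shown binding site.
Isg15: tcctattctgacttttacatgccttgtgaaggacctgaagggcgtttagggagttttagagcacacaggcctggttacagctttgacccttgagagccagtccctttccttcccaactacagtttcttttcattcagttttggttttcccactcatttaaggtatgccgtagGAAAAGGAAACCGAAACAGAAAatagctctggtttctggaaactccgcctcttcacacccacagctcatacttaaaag

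Chemokines and cytokines, which call leukocytes to inflamed endothelium, had 6 of 16 members lower and 1 higher (median -0.67). Ccl2, the main monocyte chemokine, went from 8894 and 9223 to 1973 and 1845 (-2.22), and Il6 had a log2 change of -1.72. Ccl7 (-1.44), Ccl3 (-1.36), Csf2 (-1.18) and Ccl5 (-1.01) also fell. The exception was Ebi3, a subunit gene of interleukins 27 and 35, from 145 and 49.3 to 671 and 695 (2.40). The acute-phase genes Saa3, from 7627 and 6991 to 1019 and 1009 (-2.79), and Serpina3n, from 982 and 964 to 132 and 60.8 (-2.85), fell, as did Cp, the ceruloplasmin gene (-2.09), and Lcn2 (-1.17). Of 12 complement and acute-phase genes 4 fell and 1, the complement regulator Cd55 (1.41), rose.

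Of 24 cytokine receptor genes 2 rose (8.33%, against 4.59% of all genes), 1 fell (4.17%, against 3.45%) and 21 were not called. Il1r1, the interleukin-1 receptor gene, went from 45.2 and 56.6 to 508 and 518 (2.48) and Il13ra2, a decoy receptor gene, from 68.2 and 78.3 to 694 and 609.9 (2.51). Socs3, a feedback inhibitor of cytokine signals, fell by 1.12 on the log2 scale. Of the adhesion molecules for leukocytes, Vcam1 (-1.02), Podxl (-1.55) and Mcam fell, Alcam (1.45) and Madcam1 (1.15) rose, and Icam1 (0.32), Sele (-0.90) and Selp (-0.88) did not pass. None of 13 MHC class I genes was called.

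In the TGF-beta and BMP list, 5 of 36 genes fell (13.9%, against 3.45% of all genes) and 3 rose (8.33%, against 4.59%). The list median was -0.04 and turned to 0.09 under quantile normalization. Pmepa1, an inhibitor of TGF-beta signalling that is itself a target of it, had the largest fall of the comparison, from 4283 and 5179 to 25.7 and 19.9 (log2 change -6.03, SE 0.25, adjusted p = 5e-07). A second probe set of Pmepa1 gave -1.77, the same direction at a smaller size. Tgfbi, a TGF-beta induced matrix gene, rose by 1.42, and Inhbb (-1.48) and Tgif1 (-1.17) fell. The receptor genes Tgfbr1 (-0.65), Tgfbr2 (-0.74) and Eng (-0.17) and the inhibitor gene Smad7 (0.55) were not called.

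Feedback genes of the ERK pathway, which are transcribed when growth factor receptors are active and then damp the signal, were called in 9 of 20 cases, 7 lower and 2 higher (median -0.44). Dusp5, an ERK phosphatase of the nucleus, went from 777 and 737 to 54.9 and 222 (-2.26) and Dusp6, its cytoplasmic relative, from 2671 and 2777 to 801 and 938 (-1.6). Spry1 (-1.92), Spry2 (-1.21), Spred1 (-1.54), Errfi1 (-1.27) and Dusp4 (-1.20) also fell. Rgs2, an inhibitor of G proteins of the Gq class, rose from 398 and 241 to 3866 and 3577 (3.39), and Phlda1 by 2.13. Immediate early genes had 2 of 18 members higher and 1 lower (16.7% called, against 8.04% of all genes). Egr1 at 0.04, Jun at -0.67 and Fosb at 0.26 were not among them.

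Genes under parental imprinting showed 4 rises and 2 falls among 19 tested. Mest, a paternally expressed hydrolase gene, went from 1518 and 1377 to 13.6 and 28.2 (-4.41, adjusted p = 5.1e-07). Igf2, the fetal insulin-like growth factor gene, went from 1279 and 1358 to 455 and 451 (-1.44) while Igf1 rose by 1.06, and Igfbp3, the binding protein gene, went from 3529.8 and 4611 to 327 and 254 (-3.59). Plagl1, a zinc finger gene, went from 46.4 and 52.4 to 458 and 382 (2.24), and Ndn, the necdin gene, from 16.6 and 22.9 to 219.8 and 251 (2.03). Peg3 (1.79) also rose.

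Aryl hydrocarbon receptor genes moved apart. The receptor gene Ahr went from 462 and 433 to 1428 and 1360.4 (1.54) and its repressor Ahrr from 12.7 and 26.6 to 517 and 564 (3.09), and Tiparp rose by 1.78. Cyp1b1, an oxidase gene induced by the receptor, fell from 1647 and 1774 to 242 and 306 (-2.45). In creatine and adenylate metabolism, Gatm, the first enzyme of creatine synthesis, went from 29.1 and 19.8 to 1576 and 1585 (4.46), and Ak1, adenylate kinase 1, from 21.6 and 34.9 to 1815 and 1837 (4.59). The urea transporter gene Slc14a1 went from 99 and 69.1 to 2110.1 and 2005 (3.98), and Ak4 fell by 1.41 on the log2 scale.

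Targets and regulators of FoxO, Wnt and PI3K signals, which are linked to VE-cadherin through beta-catenin and Akt, showed calls in both directions. Over all genes, 4.59% were higher and 3.45% lower. The shares higher and lower were 23.8% and 4.76% for FoxO targets and 25% and 15% for Wnt and TCF genes. They were 9.09% each way for PI3K and Akt genes and 9.52% each way for YAP and TEAD targets. Of 21 FoxO targets 5 rose and 1 fell, with Gadd45b, a stress gene, from 344 and 332 to 1701 and 1549 (2.11), and 3 of the rises (Cdkn1a, Sesn1, Trp53inp1) shared with the p53 list. Of 20 Wnt and TCF genes 5 rose and 3 fell, with Sfrp2, a secreted Wnt antagonist, from 39.0 and 85.8 to 549 and 628 (2.54), Apcdd1, another Wnt inhibitor, at -1.98 and Lef1 at -0.03, not called. Of 22 PI3K and Akt genes 2 rose and 2 fell, with Ddit4l, an mTORC1 inhibitor gene, from 140.3 and 34.7 to 1097 and 762 (2.93), Akt2 at 1.09 and Gsk3b at -1.28. The other probe sets of these kinase genes did not pass, at 0.53 for Akt2 and at -0.09 and -0.40 for Gsk3b. Of 21 YAP and TEAD targets 2 rose (Ccn2 and Gadd45b) and 2 fell (F3 and Wtip, -2.32), and Ccn1 was at 0.61 without passing.

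Cytoskeletal genes were called in 7 of 34 cases, 4 higher (11.8%, against 4.59% of all genes) and 3 lower (8.82%, against 3.45%). Gsn, the actin-severing gelsolin, went from 385 and 393 to 2470.1 and 2307 (2.47), and Acta2, the smooth muscle actin gene, from 120.1 and 125 to 6.4 and 4.7 (-1.64). The probe set that stands for Actb rose by 1.6, but another probe set of Actb gave 0.59, and the actin control probe sets of the chips were lower in confluent VEC-positive cells (19212 and 19634 on chip A) than in VEC-null cells (28999 and 30459), so no direction is given for Actb. Apbb1ip, whose product RIAM binds Rap1, went from 58.2 and 6.1 to 306 and 419 (2.39), Tiam1, a Rac activator, rose by 1.06 and Rnd3 fell by 1.24 on the log2 scale.

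Stress and detoxification lists had calls in both directions. Of 35 heat shock and chaperone genes 5 rose and none fell, led by Cryab, the alpha-B crystallin gene, from 104 and 131 to 518 and 477 (1.72), and with Hspa1b, an inducible Hsp70 gene, at 1.39. Dnajc3 is among them at 1.52, but its other probe sets gave 0.05, 0.63 and 0.11, none called. Of 28 NRF2 and glutathione genes 2 rose and 4 fell. Gstm2, a glutathione transferase gene, went from 116 and 173 to 888 and 855 (2.26), with its other probe set at 0.19 and not called, while Gstt1 (-1.83) and the metallothionein genes Mt1 (-1.33) and Mt2 (-1.06) fell. Of 23 vasoactive genes 2 rose and 3 fell, among them Pde3b, a phosphodiesterase gene, from 680.4 and 617 to 70.5 and 73.7 (-2.51).

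Lists of basic cell functions had shares of calls below and above the 8.04% of all genes. None of 28 proteasome genes, 1 of 37 respiratory chain genes (2.7%, Uqcrh, -1.12) and 3 of 26 glycolysis and hypoxia genes (11.5%) were called. Of 24 ribosomal protein genes 2 (8.33%) were called lower, Rps13 (-1.73) and Rpl13a (-1.28), and 23 of 24 lay below 0, with a median of -0.60, or -0.49 after quantile normalization. The bright end of chip A differed as well. The 99th percentile of signals on chip A was lowest in confluent VEC-positive cells (6658 and 6773, against 7384 and 7666 in confluent VEC-null cells), and so was the Gapdh control signal (12920 and 12788 against 16729 and 17795). On chip B the 99th percentile was 5137 and 5130 in confluent VEC-positive and 5197 and 5107 in confluent VEC-null cells. The control signals of chip B were lower in VEC-positive cells, for Gapdh (29270 and 28590 against 38452 and 36572) and for actin (39700 and 44001 against 66835 and 62758). The ratio of the 3' to the 5' Gapdh control was 1.23 and 1.14 against 0.986 and 0.922 on chip B. On chip A it was 1.01 and 0.968 against 0.913 and 0.961. The actin ratios lay between 1.14 and 1.33 in the confluent arrays. The part of this difference among bright probe sets in the ribosomal values was not tested.

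Several large changes were in genes best known from other cell types. Sox11, a factor of nerve precursors, went from 2619.5 and 2996 to 38.6 and 16.7 (-5.21, SE 0.16), and Nrn1, the neuritin gene, from 34.0 and 56.1 to 1002 and 979 (3.46). Of 13 neuronal genes 4 fell and 2 rose. The 4 neuronal markers summed to 3410 and 2756 in VEC-null and 3162 and 3564 in VEC-positive cells. Most of that sum was Tubb3 (3024.8 and 2379.1, then 2945.1 and 3296.5), with a log2 change of 0.21. Nefl, a neurofilament gene, fell from 175.5 and 182.5 to 40.4 and 32.8 (-1.40), and its other probe set gave -3.15, also called. Stmn2 was at -0.03. Gfap, which did not pass the level filter, read 89.5 and 58.8 and then 64.4 and 97.7. Kit, the stem cell factor receptor gene, went from 654 and 747 to 33.5 and 38.9 (-3.12), Cd68, a macrophage gene, from 747 and 1074 to 288 and 281 (-1.5) and Btnl9 from 935 and 1036 to 24.7 and 8.7 (-3.97). Whether other cells have a part in these signals was not tested. Ptprv, a phosphatase gene, went from 27.5 and 11.7 to 583 and 634 (3.25), Btbd11 from 84.9 and 106 to 1649.5 and 1773 (3.60) and Dcxr, a sugar reductase gene, from 617 and 420.4 to 5543 and 5411 (3.30). Gpsm3 went from 644 and 613 to 31.7 and 30.3 (-3.07), Cd276, an immune checkpoint gene, from 2102 and 1951 to 187 and 198 (-3.10) and Lcp1, the leukocyte plastin gene, from 1614 and 1552 to 154 and 143 (-3.04).

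The same comparison in sparse cells used other arrays and gives the difference between the lines at low density. In sparse cells 948 genes (10.3%) were called, 545 higher (5.9%) and 403 lower (4.36%) in the VEC-positive line. By probe set, the sparse comparison had 1390 calls (9.69%), with 778 higher (5.42%) and 612 lower (4.27%). Of the 424 genes higher in confluent cells, 165 (38.9%) were also higher in sparse cells, and of the 319 lower ones 80 (25.1%) were also lower. The difference between the confluent and the sparse difference (the interaction) was tested for every probe set, and 601 genes (6.5%) had a higher and 573 (6.2%) a lower value in confluent cells. Of the 424 genes higher in confluent cells, 153 (36.1%) were also called in the interaction in that direction, and of the 319 lower ones 150 (47%) were. The interaction contains the confluent arrays, so these shares are raised by the choice of the genes and are given as counts only.

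**Figure D4:**
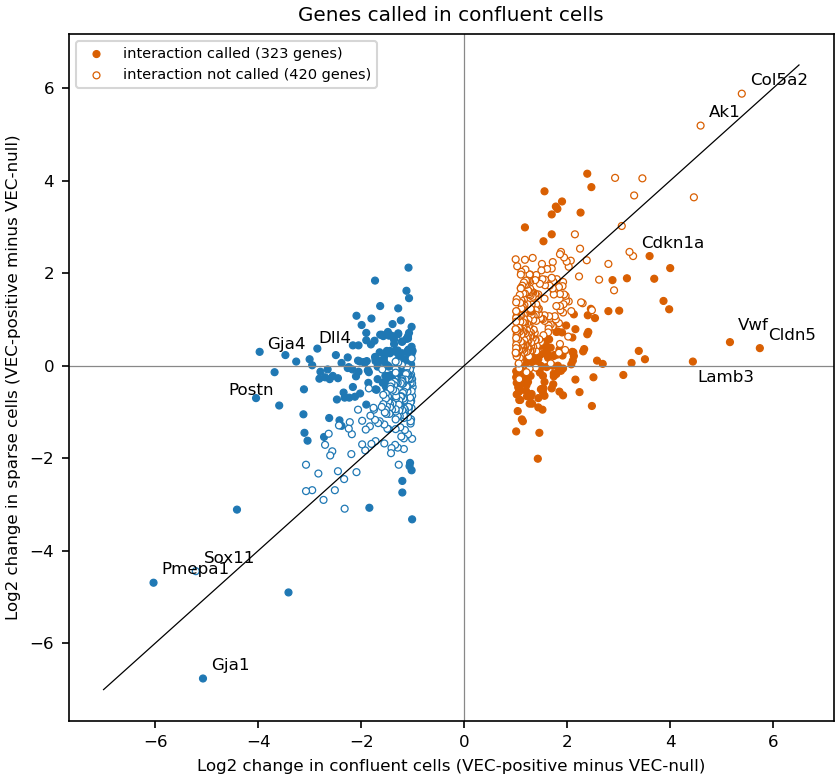
Log2 change between VEC-positive and VEC-null cells in confluent cells (x axis) and in sparse cells (y axis) for the 743 genes called in confluent cells. Orange points were higher and blue points lower in confluent VEC-positive cells, genes called in the interaction are filled and the others open, the diagonal marks equal change, and Cldn5, Vwf, Lamb3, Gja4, Dll4 and Postn lie near the horizontal line at 0 while Col5a2, Ak1, Sox11 and Cdkn1a lie near the diagonal.

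Genes called in the interaction with no call in sparse cells included tight junction, Weibel-Palade, laminin and arterial genes given above. For Cldn5 the sparse log2 change was 0.38, for Vwf 0.51, for Lamb3 0.09, for Bgn 0.14 and for Rgs2 0.32, none called. For Gja4 it was 0.09, for Dll4 0.14, for Postn -0.14 and for Col3a1 -0.70, none called. By contrast, 141 of the 424 higher genes and 62 of the 319 lower ones were called in the same direction in sparse cells with no call in the interaction, which does not show that the changes were equal. They included Col5a2 (sparse log2 change 5.88), Sox11 (-4.44), Ak1 (5.19), Gatm (3.64), Nrn1 (4.05), Dcxr (3.68), Cdkn1a (2.37) and Ephx1 (3.02). Gja1 fell at both densities and fell further in sparse cells (-6.76).

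A small group was called in opposite directions. Lower in confluent and higher in sparse VEC-positive cells were 8 genes, Plat (sparse 1.08), Hk1 (confluent -1.80, sparse 1.02), Upp1 (-1.73, 1.84), Cd53 (-1.63, 1.29), Msmo1 (sparse 1.24), Uqcrh (sparse 1.62), Fbln2 (-1.08, 2.12) and Atp5md (-1.07, 1.46). Higher in confluent and lower in sparse cells were 5, Hmgb2 (1.01, -1.42), Gins1 (sparse -1.16), Apmap (1.14, -1.20), Zfp428 (1.43, -2.01) and Elp6 (1.46, -1.45). Hk1 encodes hexokinase 1, Fbln2 the matrix protein fibulin-2 and Hmgb2 a chromatin protein of dividing cells.

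Whole chromosomes also had medians away from 0. The median log2 change of the 454 tested genes of chromosome 10 was 0.45 in confluent cells and 0.37 in sparse cells, with 74 called higher (16.3%) and 13 lower. Chromosome 8 stood at 0.29 (sparse 0.23) with 47 higher and 8 lower, chromosome 14 at 0.23 (sparse 0.25) and chromosome 5 at -0.31 (sparse -0.34) with 11 higher and 38 lower. The other chromosomes lay between -0.14 and 0.04. Mdm2, Plagl1 and Ddit4l are genes of chromosomes 10, 10 and 3. Gja1 lies on chromosome 10 and fell against its chromosome's shift, and Cldn5 (16), Vwf (6), Col5a2 (1) and Cdkn1a (17) lie on chromosomes with medians between -0.04 and 0.02. Taking the chromosome median from each gene left 367 genes higher and 302 lower, and leaving out chromosomes 5, 8, 10 and 14 left 271 higher and 249 lower of 7353, both chosen after the data were seen. The genes placed here are a picked few. For most other named genes the chromosome is not given, and their calls were not set singly against its shift. The copy number of these lines was not measured.

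**Figure D5:**
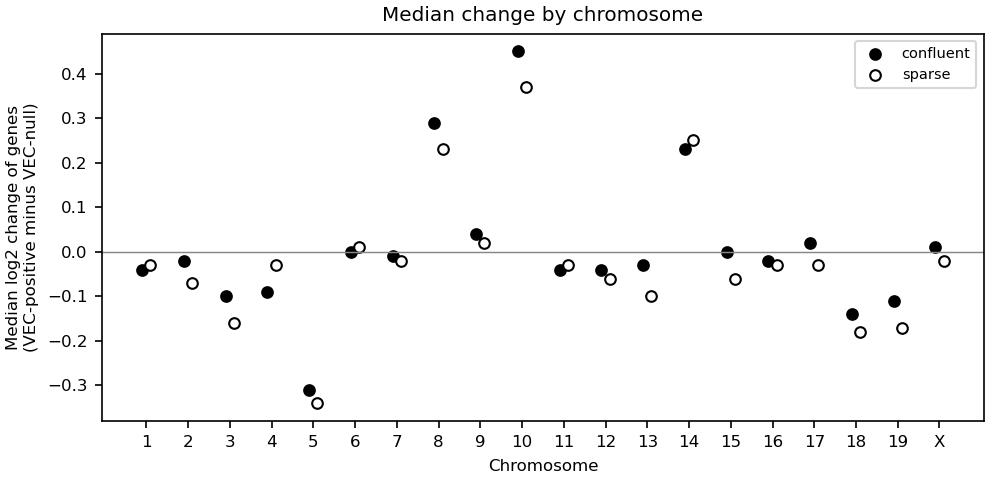
Median log2 change (VEC-positive minus VEC-null) of the tested genes of each chromosome, in confluent cells (filled) and sparse cells (open). Chromosomes 10, 8 and 14 lie above 0 and chromosome 5 below 0 at both densities.

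Other probe sets for the same gene served as a check within the arrays. Of the called genes, 207 had further tested probe sets, 274 in all. Of these, 261 (95.3%) had a value of the same sign as the probe set that stands for the gene, 117 (42.7%) were themselves called and 0 were called in the opposite direction. Several leading genes had further probe sets of the same sign and smaller size. Gja1 had 1 other, at -1.97, Cdkn1a 1 at 1.03, Lamb3 1 at 2.54 and Bgn 1 at 1.58, all called. Sox11 had others at -3.54 and -1.98 and Col3a1 at -2.99 and -2.25, all called. For Basp1, a membrane protein gene with 9042 and 8776 in VEC-null and 1178 and 1283 in VEC-positive cells (-2.81), the others gave -0.26, -3.27 and -1.5. For Upp1, the uridine phosphorylase gene, another probe set gave 0.20 against -1.73. The calls of several other named genes rest on 1 probe set, since no further one was called. The further values were 0.18 and 0.64 for Acvrl1, 0.36 and 0.66 for Cgnl1, 0.45 for Edn1, 0.80 for Gins1, 0.60 for Gpr182 and 0.49 for Itga7. They were 0.73 for Nectin1, -0.87 for Idi1, -0.87 for Lamb1, 0.03 for Lcn2, -0.41 for Mt1 and -0.33 for Podxl. For Pde3b they were -0.93 and -0.95, and for Vcam1 -0.61 and -0.57.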

How the data were processed

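Members and gene lists were chosen with earlier results of these data known. Each probe set has 1 deposited intensity per array. Per the labels, the authors computed it with MAS5 (no version given) and scaled arrays to 500. The design text also names a normalization on the median over samples, which the deposited linear values do not show. The tables carry no detection calls, and all columns were mapped to samples (0 left out). Controls aside, GEO's platform annotation gave 1 gene symbol to 21414 of 24833 probe sets, several to 574 and none to 2845. Symbols, chromosomes and promoter windows were taken from RefSeq tables of GRCm38.p6. A gene with several probe sets was represented by that on chip A before chip B, then by the highest mean signal.

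Probe sets were kept where the mean log2(signal + 50) of at least 1 group lay above the 50th percentile of the chip, which was a signal of 158.1 for chip A and of 230.2 for chip B. That left 7029 and 7315. Models over all 4 groups were fitted per chip with limma 3.58.1 in R 4.3.3, with a variance trend, 4 residual degrees of freedom per chip, and p-values adjusted by the Benjamini-Hochberg method over both chips. The same code was tested on simulated data with known changes. The lines' sets of copies share numbers by label only. Their deviations correlated between -0.0891 and 0.077, so the numbers were not taken as pairs. Array number limits the precision.

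Genes were named by a rule: the genes of junctions and Cdh5, Cldn5, Vwf and Gja1, the largest changes whose copies did not overlap, the largest called members of each list with some uncalled members as values, genes called in the interaction or at both densities, genes called in opposite directions, and those next to the threshold. Some named members, such as those given for their role, fall outside the rule and were chosen after their values were seen. Alternatives covered the offset, the level filter, the normalization, the arrays in the fit, a replicate block, the variance trend, the minimum change, other probe sets and leaving out each copy.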

Additional observations from a re-analysis of the deposited data

Results flagged for a closer look

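The change between the lines differed between densities for 1751 probe sets, where the test of the difference itself (confluent minus sparse log2 change, limma) passed the threshold. The values in parentheses are these differences on the log2 scale for the genes named in the report, so a positive value means a difference (VEC-positive minus VEC-null) that was higher when confluent, and Gja1, for example, fell less in confluent cells. Junction genes had positive values for Cldn5 (5.36), Gja1 (1.70), Itgb4 (1.68) and Lamb3 (4.35). Negative values were those of Cdh13 (-1.14), Gja4 (-3.35), Itga6 (-1.15), Jam2 (-1.83) and Jup (-2.09). Haemostasis and endothelial genes had positive values for Aplnr (1.82), F8 (1.51), Gpr182 (1.45), Mmrn2 (1.26), Rgs2 (3.07) and Vwf (4.65). Those below 0 were Ednrb (-2.21), F3 (-1.41), Flt4 (-1.36), Nos3 (-1.01), Pdgfrb (-2.57), Pgf (-1.77), Plat (-3.17), Plaur (-2.30), Selp (-1.95), Tfpi (-1.32) and Tie1 (-1.19). Notch and arterial genes had negative values for Depp1 (-1.76), Dll4 (-3.14), Mfng (-1.49), Notch1 (-1.10), Notch3 (-2.11), Notch4 (-2.18) and Nrarp (-1.71). Guidance molecules had negative values for Efna1 (-2.45), Plxnb1 (-1.16), Robo1 (-2.59), Sema3a (-1.21) and Sema6a (-2.0). Collagen and basement membrane genes had positive values for Col15a1 (2.46). Values were negative for Col3a1 (-3.34), Col4a2 (-1.15), Col4a5 (-1.08), Col5a1 (-1.32), Col6a1 (-2.33), Col6a2 (-2.32), Col6a3 (-1.71), Lamb1 (-1.05) and Nid2 (-1.92). Other matrix proteins, proteases and integrins had positive values for Bgn (3.38), Ccn2 (1.11), Itga7 (1.03), Ltbp1 (1.04) and Sned1 (2.47). In the same group, Adamtsl1 (-3.70), Fbln2 (-3.20), Itga9 (-1.54), Mmp13 (-1.66), Mmp14 (-1.05) and Postn (-3.54) had negative values. P53 target and growth arrest genes had positive values for Cdkn1c (1.14), Cdkn2c (1.83), Gas6 (1.02) and Sesn1 (1.98). Fas was negative (-1.29).

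Replication, mitosis and chromatin genes had positive values for Gins1 (2.29), H1f10 (1.90), Hmgb2 (2.42), Mki67 (1.39), Prim1 (1.37) and Top2a (1.70). Cholesterol and lipid genes had negative values for Fdps (-2.60), Hmgcs1 (-1.83), Idi1 (-2.28), Insig1 (-1.25), Lss (-2.05), Msmo1 (-2.52), Pparg (-1.19), Scd1 (-2.21) and Srebf1 (-1.06). Interferon genes had positive values for Oasl1 (1.49), Oasl2 (1.54) and Rsad2 (1.23). Oas2 was negative (-2.27). Cytokine, receptor, adhesion and acute-phase genes had positive values for Ccl5 (2.31), Ebi3 (1.30), Il13ra2 (2.76), Il1r1 (3.35), Madcam1 (1.53) and Vcam1 (1.24). The sign was negative for Ccl3 (-1.91), Podxl (-1.63), Saa3 (-2.66), Serpina3n (-3.22) and Socs3 (-1.07). TGF-beta, BMP and ERK genes had positive values for Phlda1 (1.02) and Tgfbi (1.48). Negative values were those of Dusp5 (-2.44), Dusp6 (-2.27), Id1 (-1.78), Id3 (-2.87), Klf2 (-1.76), Pmepa1 (-1.35) and Spry2 (-1.73). Wnt, FoxO, Akt and YAP genes had positive values for Gadd45b (2.0) and Sfrp2 (1.5). Those below 0 were Ccnd2 (-2.21) and Gsk3b (-1.53). Imprinted genes and the insulin-like growth factors had positive values for Igf1 (1.04), Peg3 (1.06) and Plagl1 (2.80). Values were negative for Igf2 (-1.72), Igfbp3 (-2.74) and Mest (-1.29). Metabolic and stress genes had positive values for Ahr (2.03), Ahrr (3.29), Dnajc3 (1.01), Hspa1b (1.07), Mt2 (1.11) and Slc14a1 (2.76). In the same group, Gstm2 (-1.05), Hk1 (-2.82), Rpl13a (-1.96), Rps13 (-1.92) and Uqcrh (-2.74) had negative values. Cytoskeletal genes had positive values for Tiam1 (1.35) and for the probe set that stands for Actb (1.63), a gene given no direction above. The sign was negative for Apbb1ip (-1.76), Gsn (-1.38) and Rnd3 (-1.05). The remaining genes had positive values for Apmap (2.33), Btbd11 (1.23), Elp6 (2.91), Ptprv (3.19), Slc9a9 (1.82) and Zfp428 (3.45). Negative values were those of Atp5md (-2.53), Basp1 (-2.53), Btnl9 (-4.27), Cd276 (-1.64), Cd53 (-2.92), Cd68 (-1.82), Jun (-1.09), Kit (-2.07), Lcp1 (-1.42), Setd5 (-1.32) and Upp1 (-3.57).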

How the results depend on the processing

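Counts of called probe sets moved by over 1.5 times under few settings. The confluent count of 1132 was 590 with an offset of 200, 694 with the level filter at the 75th percentile and 4705 with no minimum change. The sparse count of 1390 was 689 with the offset of 200 and 915 with the stricter filter, and the interaction count of 1751 was 1019 with that offset. Fewer probe sets are tested under the stricter filter, and a larger offset shrinks the change of dim probe sets by construction. Leaving out a copy in turn gave confluent counts from 1089 to 1193 and interaction counts from 1640 to 1775. A replicate block, for copy numbers that do not pair, gave 1134 confluent, 1391 sparse and 1752 interaction calls, and 1124 of its confluent calls were among the 1132. The count of called genes, 743, was 669 after the chromosome medians were subtracted and 520 with the 4 shifted chromosomes left out, settings chosen after seeing the data.

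Of 207 named genes called in confluent cells and put through these settings, 143 kept their call under every setting with a test that held them. Under no setting did one of them reverse, and 59 lost the call with the offset of 200. The mean of all probe sets of a gene, a value with no test, moved 51 of the named genes by more than the standard error and 16 by less, with Cdkn1a at 2.15 (3.28 by its main probe set), Edn1 at 0.97 (1.49), Cgnl1 at 0.78 (1.33) and Acvrl1 at 0.61 (1.02). Median centring ended the calls of Ccl5, Vcam1 and Setd5, quantile normalization that of Setd5 and the offset of 16 that of Gpr182. Leaving out 1 confluent copy ended 9 to 16 calls, given with the log2 change and the adjusted p (limma) left without it. Without VEC-positive copy 2 they were Acvrl1 (0.99, 0.027), Elp6 (1.48, 0.05), Fbln2 (-0.98, 0.005), Gins1 (1.05, 0.063), Gpr182 (1.17, 0.06), Id1 (-1.0, 0.0025), Madcam1 (1.22, 0.057), Mt2 (-0.99, 0.0037) and Vcam1 (-0.96, 0.0091). For VEC-null copy 1 they were Acvrl1 (0.79, 0.028), Akt2 (1.0, 0.0023), Ccl5 (-0.99, 0.066), Cdkn2c (0.89, 0.0025), Gpr182 (1.15, 0.061), Igf1 (0.94, 0.0019), Kif3c (0.98, 0.0042), Madcam1 (1.22, 0.053), Mt2 (-0.94, 0.0032), Nectin1 (0.99, 0.0019), Spry1 (-1.68, 0.074) and Vcam1 (-0.88, 0.0095). With VEC-positive copy 1 left out they were Atp5md (-0.96, 0.023), Ccl3 (-0.92, 0.037), Ccl5 (-0.74, 0.11), Csf2 (-0.98, 0.037), Ei24 (0.93, 0.00056), Elp6 (1.44, 0.057), Hey1 (-0.68, 0.12), Hmgb2 (0.95, 0.0029), Igf1 (0.99, 0.0029), Itga2 (-0.97, 0.047), Kif3c (0.97, 0.0058), Klf4 (0.97, 0.0018), Madcam1 (1.09, 0.084), Plxnb1 (-0.74, 0.015), Reck (0.94, 0.024) and Setd5 (-1.0, 0.017). Leaving out VEC-null copy 2 ended those of Atp5md (-0.76, 0.012), Ccl5 (-1.04, 0.051), Fbln2 (-0.95, 0.0047), Hey1 (-1.02, 0.077), Hmgb2 (0.95, 0.002), Id1 (-0.99, 0.0023), Madcam1 (1.09, 0.072), Plxnb1 (-0.95, 0.025), Rnd3 (-0.98, 0.0069) and Setd5 (-0.82, 0.022). The cause was not tested. Signal over background limits what dim probe sets can show.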
